A study of Mus musculus with 24 samples.

Results

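Steroid and prolactin signaling in the mammary gland was followed through 9 genes: the receptor genes Esr1, Pgr, Prlr and Tnfrsf11a, the paracrine ligand genes Areg, Wnt4 and Tnfsf11, and the estrogen-responsive regulators Greb1 and Cited1. The genes were chosen by name, as the rows of the count table whose Ensembl identifier carries one of these symbols in the GENCODE M1 annotation. All 9 were found among the 37991 genes of the table. Of these, 8 passed the filter on low counts, which kept 14918 genes, and Tnfsf11 did not.

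RNA was sequenced from mammary tissue of 24 female mice in 8 groups of 3. PyMT mice were F1 females heterozygous for a polyoma middle T transgene on the FVB/N background, and the MMTV long terminal repeat that drives the transgene restricts it to mammary epithelia. Controls were homozygous FVB females of the same ages, without the transgene. The PyMT tissue was labelled as hyperplasia in the mice of week 6 and as tumors in the older mice: adenoma/MIN in week 8, early carcinoma in those of week 10 and late carcinoma in week 12. The FVB tissue was labelled mammary gland at each of these weeks.

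In the mammary gland, a subset of luminal epithelial cells carries the estrogen receptor (Esr1) and the progesterone receptor (Pgr), whose gene is itself induced by estrogen. These cells answer the ovarian hormones largely by secreting local signals: amphiregulin (Areg), an EGF receptor ligand needed for ductal growth, and WNT4 and RANKL (Tnfsf11), which carry the progesterone signal to neighbouring cells. RANKL acts through its receptor RANK (Tnfrsf11a), and prolactin acts through its receptor (Prlr), JAK2 and STAT5 to drive alveolar development and milk protein genes.

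The stretches before the transcription start are shown for Areg, which had the largest difference between genotypes among the tested genes of this set, for Greb1, a standard estrogen target, for Prlr, and for Tnfrsf11a, the member that was higher in PyMT. Prlr and Greb1 have more than 1 window. The Prlr window shown was picked because it is the only one of that gene with a STAT-type motif. RefSeq held start windows for all 9 genes, 15 windows in all, each of 250 bases before and 50 after a start. The windows are from RefSeq's GRCm38.p6 table, and each was found by exact match at 1 place in mm9, the build of the counts. Each sequence below holds the 250 bases before the start, 5′ to 3′ along the gene. Capitals mark letters that match a searched motif.
Areg (mm9 chr5:91568375-91568624, plus strand): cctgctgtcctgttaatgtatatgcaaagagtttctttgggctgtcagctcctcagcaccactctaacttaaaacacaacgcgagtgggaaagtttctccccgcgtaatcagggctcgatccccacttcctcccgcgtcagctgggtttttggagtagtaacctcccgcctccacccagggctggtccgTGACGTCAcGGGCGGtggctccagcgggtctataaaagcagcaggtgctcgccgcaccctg
Greb1 (mm9 chr12:16807693-16807942, minus strand): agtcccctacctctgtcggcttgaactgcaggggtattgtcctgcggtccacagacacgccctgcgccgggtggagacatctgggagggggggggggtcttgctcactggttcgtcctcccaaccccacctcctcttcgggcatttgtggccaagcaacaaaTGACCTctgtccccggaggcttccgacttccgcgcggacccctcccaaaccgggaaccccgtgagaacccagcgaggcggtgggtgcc
Prlr, a start inside the gene (mm9 chr15:10153411-10153660, plus strand): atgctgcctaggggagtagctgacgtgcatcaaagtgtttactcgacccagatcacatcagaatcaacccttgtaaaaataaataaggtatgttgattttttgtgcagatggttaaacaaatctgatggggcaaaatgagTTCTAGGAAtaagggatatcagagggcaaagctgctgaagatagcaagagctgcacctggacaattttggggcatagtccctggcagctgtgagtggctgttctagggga
Tnfrsf11a (mm9 chr1:107677050-107677299, plus strand): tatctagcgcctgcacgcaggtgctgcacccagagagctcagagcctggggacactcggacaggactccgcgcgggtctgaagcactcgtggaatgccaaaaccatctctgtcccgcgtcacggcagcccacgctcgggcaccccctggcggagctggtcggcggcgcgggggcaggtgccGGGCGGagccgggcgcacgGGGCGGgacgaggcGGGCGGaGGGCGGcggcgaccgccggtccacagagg

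Of the motifs searched on both strands, the full estrogen response element GGTCANNNTGACC was in none of the 15 windows, and it was in 0.07% of all 32851 RefSeq windows of this length. The single hexamer AGGTCA, which overlaps the full element, was in 16.3% of all windows. It stood in the Greb1 window above, where it began 88 bases before the start on the opposite strand. It was also in 1 of the windows of Cited1, 217 bases before that start. A cAMP response element, TGACGTCA, was in 1.79% of all windows and began 61 bases before the Areg start. The STAT-type motif TTCNNNGAA was in 8.3% of all windows, and it was in the Prlr window above, 110 bases before the start, and in 1 of the windows of Esr1. The SP1 box GGGCGG, in 35.7% of all windows, occurred 4 times before the Tnfrsf11a start, 8 times before that of Wnt4, and 1 time each before a start of Areg, Pgr and Cited1. These matches describe letters only, and no binding was measured.

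Total counts ran from 6969375 to 13516601 per library, with a median of 8280269.5. In 13 of the 24 libraries (6 PyMT, 7 FVB), the smoothed number of genes at each count had a peak at 8 to 25 counts, here called a packet. Low genes could also hold counts below the packet, such as 1 count of Cited1 in PyMT week 6 replicate 2, where the packet was 25. Of the 3799 genes whose median lay at 10 to 30 CPM (counts scaled to library size), 4.4% had a count of 0 in FVB week 10 replicate 3 and 2.87% in PyMT week 8 replicate 2, the largest shares of all libraries. Such packets were present in each PyMT library of week 6 and in each FVB library of week 10. Markers of cell types also differed. The summed normalized counts of 7 pan-epithelial markers (Krt8, Krt18, Krt19, Epcam, Cdh1, Cldn3 and Cldn7) ran from 18350 to 36210 in PyMT and from 3923 to 18040 in FVB. Those of 8 adipocyte markers ran from 1042 to 15660 in PyMT and from 46360 to 129800 in FVB, and those of 6 fibroblast markers from 21430 to 44770 and from 48430 to 186400. All 8 adipocyte, all 6 fibroblast and all 5 endothelial markers fell in PyMT over the 4 weeks, with medians of -3.83, -1.98 and -2.40 on the log2 scale, while 6 of the 7 epithelial markers rose, with a median of 1.72. Of 8 basal and myoepithelial markers, 5 fell and none rose (median -2.27), and their summed counts ran from 1295 to 5968 in PyMT and from 4538 to 16190 in FVB. Of 8 luminal progenitor and alveolar markers, which include milk genes, 5 rose and none fell (median 2.93), with sums of 41450 to 88470 in PyMT and 3349 to 7945 in FVB. In this list the ratio of the PyMT mean to the FVB mean was 20.7 for the milk gene Csn3. It was 1.90 for Kit, 1.88 for Cd14 and 0.74 for Aldh1a3. Skeletal muscle markers also differed, with 7 of 7 tested lower in PyMT, but their sums varied widely between libraries and overlapped. The lowest, median and highest sums were 0, 226 and 28940 in PyMT and 78.4, 841 and 513700 in FVB. FVB week 10 replicate 3 held the highest. Lymphoid marker sums were low in both genotypes, from 18.7 to 95.4 in PyMT and from 18.5 to 119 in FVB. In such bulk tissue, fewer cells of a type and less RNA per cell cannot be told apart.

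The first question was how the genotypes differed at each stage. PyMT and FVB samples of the same week were compared with the quasi-likelihood test of edgeR, adjusted by Benjamini-Hochberg over the 14918 tested genes, and a gene was called when its fold was above 2 and its adjusted p under 0.05. At week 6, 3 of the 8 tested members were called, 2 lower and 1 higher in PyMT, where 10% of all tested genes were called, 6.46% lower and 3.58% higher. At week 8, 6 were called, 5 lower and 1 higher (9.95% of all genes, 6.37% lower and 3.57% higher). At week 10, 6 were called, again 5 lower and 1 higher (13.9%, 9.09% and 4.83%). At week 12, 7 were called, 6 lower and 1 higher (20.7%, 13% and 7.75%). With week as a factor over all 24 samples, all 8 tested members were called, 7 lower and 1 higher, where 25.7% of all genes were called, 17.2% lower and 8.51% higher. The member higher in PyMT was Tnfrsf11a in each of these comparisons. The week 6 count was 5 without PyMT week 6 replicate 2 or replicate 3, 6 with DESeq2, with no filter and with all 24 samples in 1 fit, and 7 with counts divided by the packet size. The week 8 count was 3 without PyMT week 8 replicate 1, PyMT week 8 replicate 3 or FVB week 8 replicate 2. The shares of all genes called under these settings are not given here, so these counts cannot be set against a background. Over the 4 weeks the tested genes had a median log2 fold change of -0.03.

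**Figure D1:**
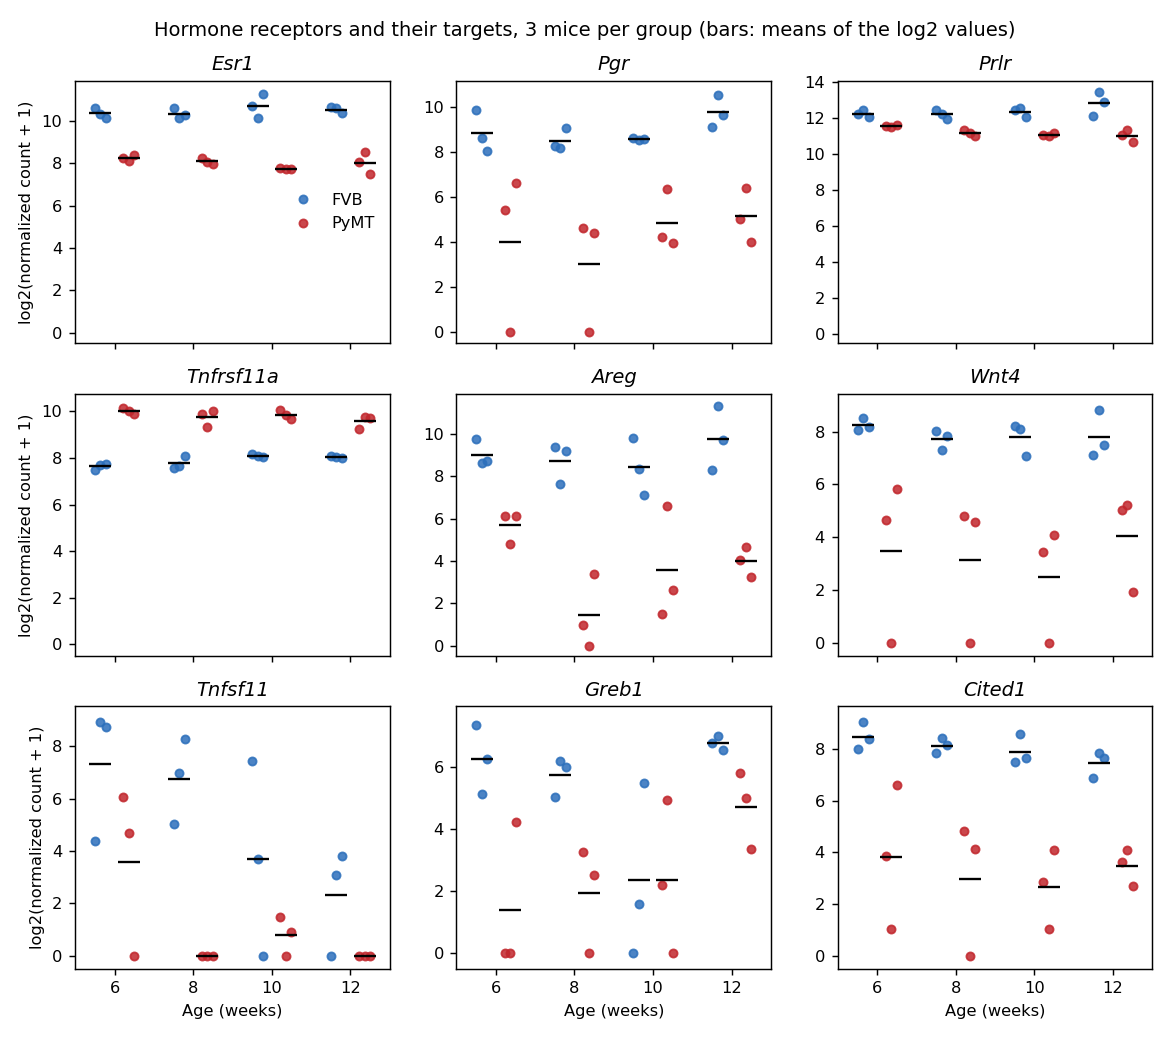
Expression of the 9 genes in each mouse: the x axis is age in weeks, the y axis is log2(normalized count + 1), blue points are FVB, red points are PyMT, 3 mice per group, and bars are means of the log2 values. The red points lie below all blue points at each week for Esr1, Pgr, Prlr, Areg, Wnt4 and Cited1, and above them for Tnfrsf11a.

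Samples of the genotypes did not overlap for 7 members. All 12 PyMT samples lay below all 12 FVB samples for Esr1, Pgr, Prlr, Areg, Wnt4 and Cited1, which held for 7.22% of all tested genes. All 12 PyMT samples lay above all 12 FVB samples for Tnfrsf11a, which held for 4.67%. The samples overlapped for Greb1 and Tnfsf11.

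Esr1, on mm9 chromosome 10 from 5340927 to 5734948 on the minus strand, fell in PyMT at each week. Its normalized counts, which are counts divided by a size factor for each library, had a lowest, median and highest of 179, 267 and 373 in the 12 PyMT samples and of 1116, 1437 and 2494 in the 12 FVB samples. In PyMT the group means were 303 ± 29.0 (SD, n = 3) in hyperplasia, 274 ± 29.4 in adenoma, 214 ± 5.75 in early carcinoma and 272 ± 97.0 in late carcinoma. In FVB they were 1324 ± 221, 1319 ± 240, 1766 ± 687 and 1488 ± 150. The groups were several-fold apart already in hyperplasia and did not overlap at any week. FVB week 10 replicate 3, the library with the most genes at 0, held the highest value. Its pan-epithelial marker sum, 3923, was the lowest of all libraries. FVB week 12 replicate 2, with the highest such sum in FVB (18040), had 1559 normalized counts of Esr1. The part of epithelial content in Esr1 levels was not tested. The log2 fold changes (PyMT against FVB) were -2.13, -2.25, -2.99 and -2.41 at the 4 weeks, with adjusted p from edgeR of 0.00156, 0.00293, 7e-04 and 5.69e-04. Over all weeks the difference was -2.45 ± 0.14 (SE), with an adjusted p of 2.58e-12. In the 11 libraries without packets it was -2.27.

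Pgr, on chromosome 9 from 8900419 to 8965425 on the plus strand, was low in PyMT and more variable than Esr1. PyMT samples had normalized counts of 41.8, 0 and 97.6 at week 6, of 23.9, 0 and 20.0 at week 8, of 17.8, 80.7 and 14.5 at week 10, and of 31.9, 83.3 and 14.8 at week 12. FVB samples had 921, 390 and 258, then 303, 284 and 529, then 387, 371 and 374, and at week 12 they had 556, 1491 and 798. Both PyMT values of 0 stood in libraries with packets of 23 and 25 counts, the groups were apart at each week, and FVB week 12 replicate 2 was the highest sample. The log2 difference was -3.44 ± 1.09 (SE) at week 6, which did not pass (edgeR adjusted p = 0.0803). It was -4.61, -3.30 and -4.42 at weeks 8, 10 and 12, all of which passed. The week 8 call was lost without any 1 of 4 of the 6 libraries (PyMT replicate 1 or 3, FVB replicate 2 or 3), with adjusted p of 0.0682 to 0.079, and the week 10 call was lost without PyMT replicate 1 (0.0524). Over all weeks Pgr fell by 3.93 ± 0.49 on the log2 scale (adjusted p = 4.31e-07), and the difference was -4.08 in the libraries without packets.

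Prlr, on chromosome 15 from 10106993 to 10303504 on the plus strand, was the most abundant member in counts and differed by the smallest fold of the 7 that fell over all weeks. PyMT samples had normalized counts of 2976, 2949 and 3182 at week 6, of 2627, 2311 and 2070 at week 8, of 2128, 2079 and 2292 at week 10, and of 2152, 2575 and 1622 at week 12. FVB samples had 4781, 5620 and 4319, then 5679, 4746 and 3948, then 5558, 6089 and 4347, and at week 12 they had 4496, 11280 and 7611. PyMT stayed within a narrow band below FVB at each week, and FVB week 12 replicate 2 was again the highest sample. The log2 difference was -0.70 ± 0.19 (SE) at week 6 (edgeR adjusted p = 0.0527, not passed), -1.02 ± 0.22 in week 8, -1.25 ± 0.21 in week 10 and -1.84 ± 0.34 in week 12. The week 6 difference also missed the fold of 2, as it did under every alternative (-0.74 to -0.43). The week 8 call was lost when any 1 library of that week but FVB replicate 3 was left out. Over all weeks it was -1.21 ± 0.15 with an adjusted p of 2.85e-07, and -1.18 in the libraries without packets. Scaled by library size alone, which moved the median of all genes up by 0.29, it was -0.94 and missed the fold of 2, with an adjusted p of 5.79e-05.

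Tnfrsf11a, which encodes RANK, lies on chromosome 1 from 107677300 to 107744558 on the plus strand and rose in PyMT at each week. PyMT samples had normalized counts of 1143, 1026 and 955 at week 6, of 945, 652 and 1023 at week 8, of 1060, 918 and 828 at week 10, and of 608, 879 and 830 at week 12. FVB samples had 181, 208 and 215, then 189, 204 and 268, then 284, 275 and 261, and at week 12 they had 269, 260 and 257. The lowest PyMT sample was above the highest FVB sample, and FVB replicates lay close together. The log2 fold changes were 2.36, 2.01, 1.82 and 1.61, each with an SE between 0.19 and 0.27. Over all weeks the difference was 1.94 ± 0.11 with an edgeR adjusted p of 2.5e-12, and it was 1.81 in the libraries without packets. Of the 7 epithelial markers 6 also rose, with log2 fold changes of 1.49 for Krt18, 1.72 for Krt8 and 2.04 for Epcam. Krt19 did not, with a mean of 1320 normalized counts in PyMT and 2104 in FVB.

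**Figure D2:**
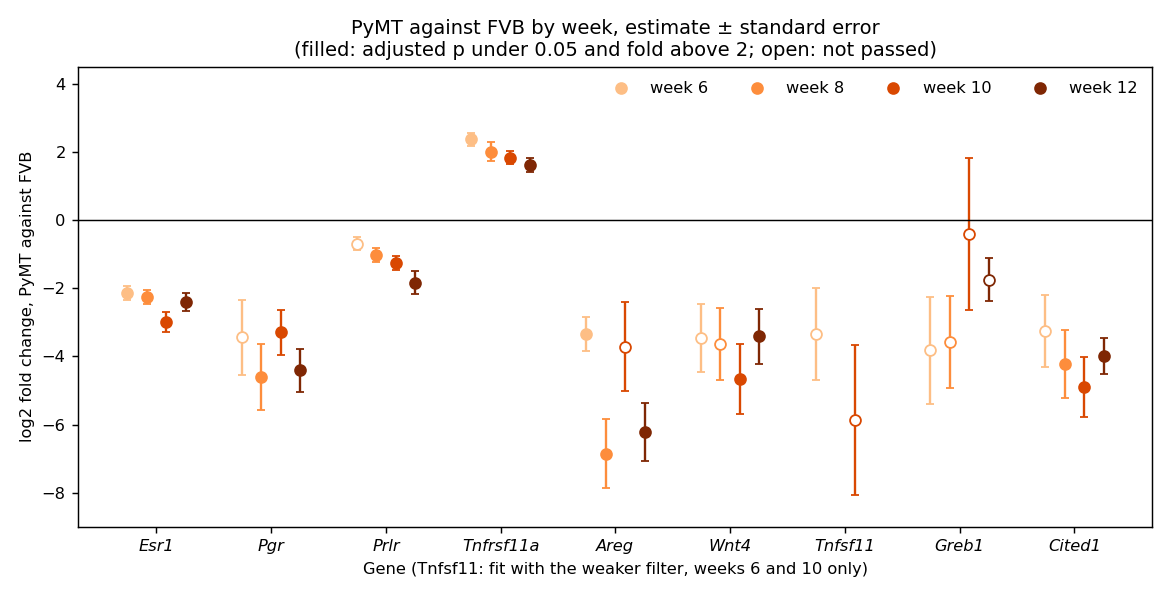
Log2 fold change of PyMT against FVB (y axis) for each gene (x axis) at weeks 6, 8, 10 and 12, shaded from light to dark, with standard errors from edgeR. Filled points passed an adjusted p of 0.05 and a fold of 2. Tnfrsf11a lies between 1.61 and 2.36 at all weeks, and the other estimates are below 0; Tnfsf11 is drawn only at weeks 6 and 10, when PyMT samples held counts.

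Among the ligands, Areg (chromosome 5, 91568641 to 91577458, plus strand) showed the largest fall over all weeks of the 8 tested members. PyMT samples had normalized counts of 68.6, 27.1 and 68.1 at week 6, of 0.954, 0 and 9.41 at week 8, of 1.78, 97.5 and 5.12 at week 10, and of 15.4, 24.6 and 8.32 at week 12. FVB samples had 873, 392 and 418, then 671, 198 and 591, then 896, 326 and 136, and at week 12 they had 313, 2534 and 849. The groups did not overlap at any week, but replicates within a group differed widely: PyMT week 10 replicate 2 was the highest PyMT sample and FVB week 12 replicate 2 the highest of all. The log2 fold changes were -3.35 ± 0.49 (SE), -6.86 ± 1.01, -3.71 ± 1.32 and -6.22 ± 0.84 at weeks 6, 8, 10 and 12, with edgeR adjusted p of 0.00499, 0.00789, 0.0986 and 0.00138. Week 10 therefore did not pass. Without PyMT week 10 replicate 2 the week 10 difference was -6.93, and it passed. It also passed with DESeq2 (-3.67, adjusted p = 0.00619) and with counts divided by packet size (-5.97). Over all weeks Areg fell by 4.84 ± 0.63 (adjusted p = 7.71e-07), and the difference was -5.71 in the libraries without packets.

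Wnt4, a secreted WNT ligand on chromosome 4 from 136833404 to 136855641 on the plus strand, fell over all weeks by 3.78 ± 0.55 (SE) on the log2 scale, with an edgeR adjusted p of 3.43e-06. The lowest, median and highest normalized counts were 0, 19.6 and 56.2 in PyMT and 133, 263 and 456 in FVB. PyMT replicate 2 held 0 counts at weeks 6, 8 and 10, all in libraries with packets, and the other PyMT samples were also below all FVB samples. The difference passed at week 10 (-4.66, adjusted p = 0.0198) and week 12 (-3.41, adjusted p = 0.0161). It did not pass at week 6 (-3.46, adjusted p = 0.0621) or week 8 (-3.64, adjusted p = 0.064). Both weeks passed with DESeq2 (adjusted p = 0.00127 and 0.00212), with no filter, with all 24 samples in 1 fit and with counts divided by packet size, and the week 10 call was lost without PyMT replicate 1, FVB replicate 1 or FVB replicate 2. In the libraries without packets the difference, which rests on weeks 8 and 12, was -3.05.

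Tnfsf11, which encodes RANKL, lies on chromosome 14 from 78677252 to 78707850 on the minus strand. It had at least 1 CPM in 11 samples, fewer than the 12 that the filter asked for, and a median of 0.551 CPM. PyMT samples had counts of 75, 24 and 0 at week 6, 0 in all 3 at week 8, 2, 0 and 1 at week 10, and 0 in all 3 at week 12. FVB samples had 17, 630 and 481 counts, then 25, 109 and 276, then 240, 12 and 0, and at week 12 they had 0, 6 and 12. FVB samples thus spanned from 0 to 486 in normalized counts, and the genotypes were apart only at week 8. With a weaker filter of 0.5 CPM in 3 samples, which kept 19523 genes and called 24.6% of them over all weeks, Tnfsf11 was called lower in PyMT at -5.48 ± 1.04 (SE, edgeR adjusted p = 1.16e-04). In that fit week 8 passed (adjusted p = 0.00647, with 8.08% of genes called). Weeks 6, 10 and 12 did not (adjusted p = 0.178, 0.133 and 0.158), where 7.48%, 10.4% and 16.3% of genes were called.

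Of the estrogen-responsive regulators, Cited1, a transcriptional coactivator of the estrogen receptor on chromosome X from 99442720 to 99447520 on the minus strand, followed Wnt4 closely. Its lowest, median and highest normalized counts were 0, 12.3 and 96.4 in PyMT and 117, 240 and 528 in FVB. PyMT week 6 replicate 3 was the only PyMT sample above 30, and no PyMT sample reached the lowest FVB sample. The log2 fold changes were -3.26 at week 6 (edgeR adjusted p = 0.0875, not passed), -4.23 in week 8 (0.035), -4.90 in week 10 (0.00777) and -4.00 in week 12 (0.0012). The week 8 call was lost with the replicate number as a block (-4.63, adjusted p = 0.0652) and without any 1 of the same 4 libraries as for Pgr, and week 6 passed with DESeq2 (adjusted p = 0.00381). Over all weeks Cited1 fell by 4.07 ± 0.51 (adjusted p = 4.28e-07), and the difference was -3.76 in the libraries without packets.

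Greb1 (chromosome 12, 16677421 to 16807692, minus strand), a cofactor gene induced by estrogen in mammary cells, was the tested member with the largest adjusted p over all weeks. PyMT samples had normalized counts of 0, 0 and 17.6 at week 6, of 8.59, 0 and 4.71 at week 8, of 3.56, 29.3 and 0 at week 10, and of 54.5, 31.0 and 9.24 at week 12. FVB samples had 161, 33.9 and 74.9, then 31.5, 72.1 and 62.2, then 0, 2.00 and 43.8, and at week 12 they had 108, 127 and 91.9. PyMT was below FVB without overlap at weeks 6, 8 and 12 but not at week 10, when 2 of the 3 FVB samples were also near 0. No single week passed with edgeR, with log2 differences of -3.82, -3.58, -0.42 and -1.75 and edgeR adjusted p of 0.165, 0.128, 0.93 and 0.0695. With DESeq2, weeks 6, 8 and 12 passed (adjusted p = 0.0352, 0.0107 and 0.0238), as they did in edgeR with counts divided by packet size. Over all weeks the difference was -2.42 ± 0.87 (SE) and passed with an adjusted p of 0.0235. It no longer passed without FVB week 10 replicate 3 (-2.34, edgeR adjusted p = 0.0536). In the libraries without packets it was -2.63. Week 10, when the genotypes overlapped, could not enter that value, because every FVB library of week 10 held packets.

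Per length, the order of the members differed between the genotypes. In FVB, mean RPKM (reads per kilobase of exon, scaled to library size) was 66.6 ± 62.1 (SD, n = 12) for Areg, 43.0 ± 15.1 for Prlr, 18.2 ± 7.47 for Cited1, 13.6 ± 8.80 for Pgr and 12.6 ± 3.14 for Esr1. Next in FVB came Wnt4 at 7.07 ± 2.69, Tnfsf11 at 7.03 ± 9.34, Tnfrsf11a at 5.56 ± 0.82 and Greb1 at 0.825 ± 0.609. Areg and Prlr overlapped within their spread in FVB, as did Cited1, Pgr and Esr1, then Esr1 and Wnt4, and then Wnt4, Tnfsf11 and Tnfrsf11a. In PyMT, Tnfrsf11a (21.3 ± 3.88) and Prlr (18.4 ± 3.53) led, and their spreads overlapped. Areg followed at 2.68 ± 3.19, Esr1 at 2.30 ± 0.50, Cited1 at 1.20 ± 1.79, Pgr at 0.884 ± 0.835, Wnt4 at 0.538 ± 0.501, Tnfsf11 at 0.413 ± 1.05 and Greb1 at 0.163 ± 0.209. The spreads of these PyMT means overlapped from each gene to the next.

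Because epithelial marker counts were higher in PyMT tissue, the genotypes were also compared with each library scaled to the geometric mean of the 7 pan-epithelial markers in place of all genes. The marker level of a library, relative to the geometric mean of all 24, ran from 1.23 to 2.31 in PyMT and from 0.246 to 1.125 in FVB. On this scale the median of all genes was -1.59, and 76.3% of all genes were called, 74.9% lower and 1.42% higher, so a call by itself says little here. The same 7 members were called lower and none higher. Differences for the receptors were -4.09 ± 0.34 (SE) for Esr1, -5.49 ± 0.56 for Pgr and -2.73 ± 0.27 for Prlr. They were -6.38 ± 0.67 for Areg, -5.20 ± 0.60 for Wnt4, -4.15 ± 0.87 for Greb1 and -5.55 ± 0.57 for Cited1. All 7 lay below the median of all genes. Tnfsf11, in the fit with the weaker filter, was at -6.67 ± 1.02, where 67% of genes were called. Tnfrsf11a was 0.41 ± 0.24 and did not pass (edgeR adjusted p = 0.119). Krt19, the marker of the 7 that was not higher in PyMT (-0.59 with all-gene scaling), was called lower on this scale. The lower stromal markers moved in the same direction as Esr1, Pgr, Prlr and the ligands, and their part in these differences was not tested.

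**Figure D3:**
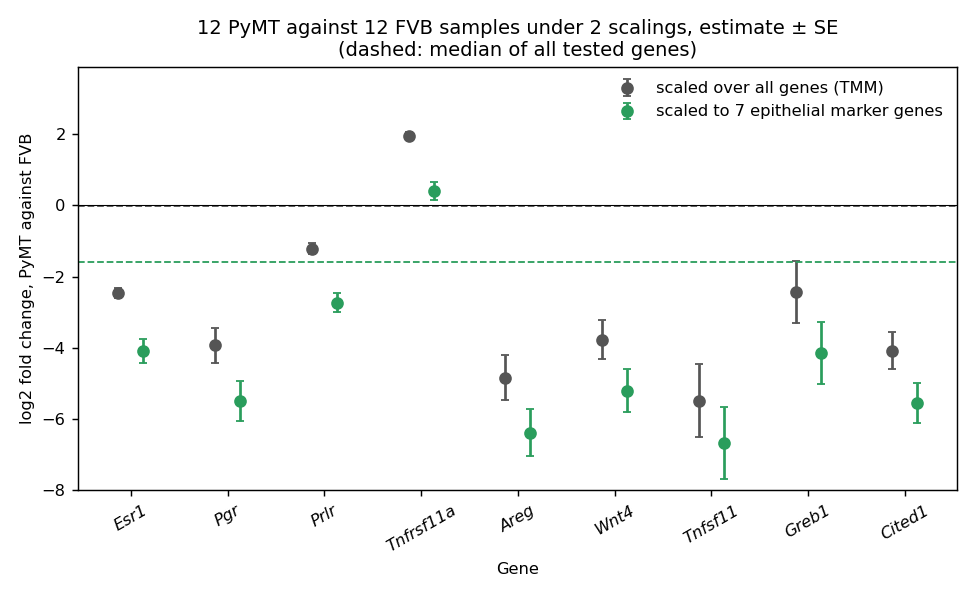
Log2 fold change of 12 PyMT against 12 FVB samples (y axis) for each gene (x axis), with standard errors, under scaling over all genes (grey) and to 7 epithelial marker genes (green); dashed lines are the medians of all tested genes, -0.03 and -1.59. The 7 genes that fell, and Tnfsf11 from the fit with the weaker filter, lie further below 0 in green, and Tnfrsf11a moves from 1.94 to 0.41.

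The next question was whether the members changed with age or stage. Within PyMT, no member was called between week 12 and week 6, and edgeR called 0 of the 14918 genes (0%), with 1004 at an unadjusted p under 0.05 and 97 called by DESeq2. Within FVB, edgeR called none of all genes either (0%), with 625 at an unadjusted p under 0.05 and 19 called by DESeq2. For the change of the PyMT-FVB difference between these weeks, 691 genes had an unadjusted p under 0.05 and DESeq2 called 10, and for the joint test of genotype by week these were 494 and 17. In both, edgeR called 0 genes (0%), and DESeq2 called 0 members in all 4 comparisons.

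Prlr and Tnfrsf11a were the members with an unadjusted p under 0.05 for that change. From week 6 to week 12 Prlr moved by -0.51 ± 0.25 (SE) in PyMT and by 0.63 ± 0.25 in FVB on the log2 scale, a difference of -1.15 ± 0.35 (edgeR adjusted p = 0.923). Tnfrsf11a moved by -0.42 ± 0.19 in PyMT and by 0.35 ± 0.20 in FVB, a difference of -0.77 ± 0.28 (edgeR adjusted p = 0.941). None of these passed after adjustment. The Prlr change in FVB was 0.27 without FVB week 12 replicate 2, the FVB library with the highest epithelial marker sum. Areg moved by -1.77 ± 1.06 in PyMT and by 1.10 ± 0.93 in FVB, and the latter was 0.0069 without that library. Esr1 moved by -0.15 ± 0.25 and 0.14 ± 0.25. Tnfsf11 counts in FVB summed to 1128, 410, 252 and 18 at weeks 6, 8, 10 and 12, and its FVB difference between weeks 12 and 6 was -5.47 ± 1.86 with an edgeR adjusted p of 1 under the weaker filter.

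Genes whose levels over the 24 samples followed a member most closely were listed by Pearson correlation of log2(normalized count + 1). These samples share genotype groups and libraries, so the correlations are a description. Esr1 was followed by Abca8a (0.98), Ddr2 (0.97), a collagen receptor, and B3galt2 (0.97). Pgr was followed by Gucy1a3 (0.96), Gpr81 (0.96) and Plscr4 (0.95), and Prlr by Tmem56 (0.95), Podxl (0.94) and Diap2 (0.93). Areg was followed by Tek (0.93), an endothelial receptor, Gm16485 (0.92) and Sema3g (0.92). Wnt4 and Cited1 were the closest genes to each other (0.97); next came Rai2 (0.96) and Cmbl (0.96) for Wnt4, and Osr1 (0.96) and Rai2 (0.95) for Cited1. Tnfrsf11a was followed by 1600029D21Rik (0.96), Hk1 (0.96) and Saa1 (0.96). Greb1 had the weakest likeness, to Sema3d (0.79), Fhl5 (0.77) and Larp6 (0.76).

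The wider pathways were then read from lists of genes around each receptor, again with week as a factor and against a background of 25.7% of genes called. Among 11 tested of 12 other hormone receptor genes, 5 fell and 1 rose, with a median of -0.96. Those that fell included the oxytocin receptor Oxtr (-3.13 ± 0.25, SE), which is also a myoepithelial marker, and the growth hormone receptor Ghr (-2.88 ± 0.17). The vitamin D receptor Vdr rose by 1.52 ± 0.17. Esr2, the other estrogen receptor, was not tested: it was at 0 in 9 of the 12 FVB libraries and reached 33.5 normalized counts in PyMT.

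Of 12 cofactors of the estrogen receptor, 3 fell and 1 rose, a share near that of all genes, with a median of -0.29. Foxa1, the pioneer factor of estrogen receptor binding, fell by 4.00 ± 0.45 (SE), from 237 to 575 normalized counts across FVB samples to between 0 and 91.3 across PyMT samples, without overlap. Tbx3 fell by 3.24 ± 0.32, while Tfap2c rose by 1.48 ± 0.24, and Gata3, another luminal factor, was at 0.77 ± 0.16 and missed the fold of 2. Of 10 tested among 12 estrogen-responsive genes, 5 fell and 2 rose, with a median of -1.15. Stc2 (-2.66 ± 0.33), Cxcl12 (-2.61 ± 0.18) and Igf1 (-2.58 ± 0.22) fell the most, and the latter 2 are also made by stromal cells. Xbp1 rose by 2.30 ± 0.11 and Igfbp5 by 2.09 ± 0.13.

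**Figure D4:**
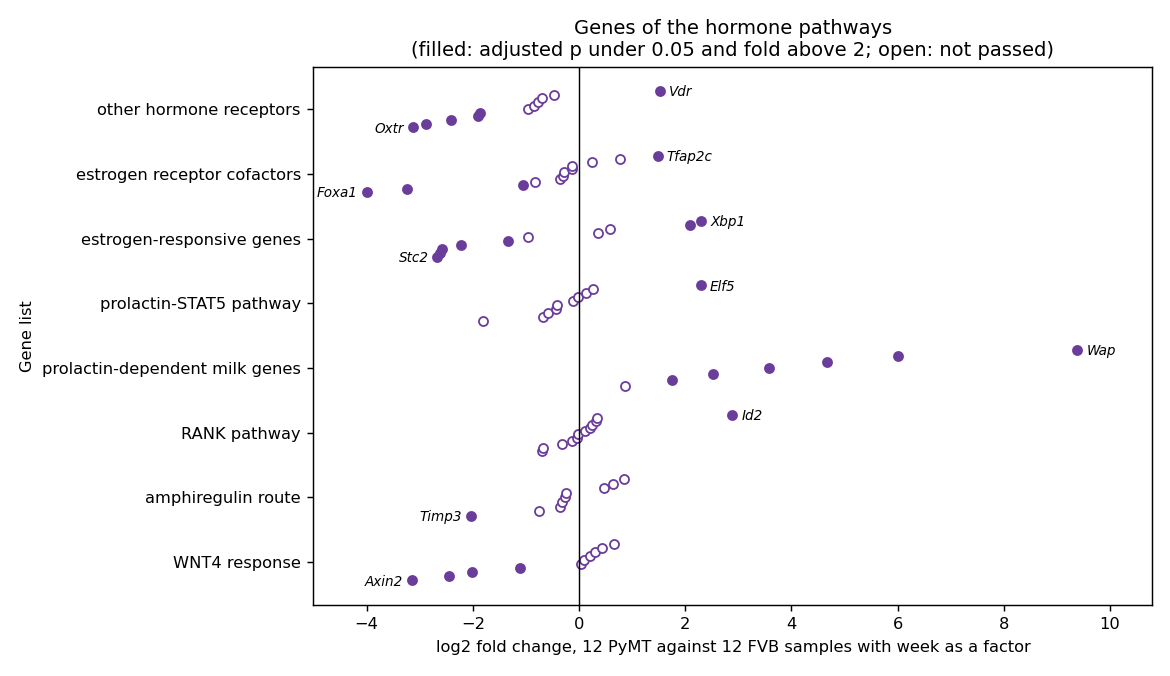
Log2 fold change of 12 PyMT against 12 FVB samples (x axis) for the tested genes of 8 pathway lists (y axis), 1 point per gene, filled where it passed an adjusted p of 0.05 and a fold of 2. The milk genes lie to the right of 0, up to Wap at 9.39, and the other lists hold genes on both sides.

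Downstream of Prlr, the signaling genes and the milk genes differed. Of 10 prolactin-STAT5 pathway genes, none fell and only Elf5, the alveolar transcription factor, rose (2.29 ± 0.17, SE); the list median was -0.27, with Stat5a at 0.14 ± 0.10 and Jak2 at -0.44 ± 0.09. Of 7 tested among 8 prolactin-dependent milk genes, 6 rose and none fell, with a median of 3.57. At the single weeks 6, 4, 5 and 3 of the 7 rose, with medians of 5.08, 2.70, 4.43 and 0.78 at weeks 6, 8, 10 and 12. Wap rose by 9.39 ± 0.49, Lalba by 6.00 ± 0.77 and Csn3 by 4.68 ± 0.37. Csn3 ran from 24890 to 47100 normalized counts in PyMT and from 194 to 4076 in FVB, so the samples did not overlap. Wap was at 0 in 6 FVB libraries, with at most 11.6 normalized counts in FVB and at least 206 in PyMT. Relative to the epithelial markers, 4 of the 7 milk genes were called higher and none lower.

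The lists around RANK, amphiregulin and WNT4 were read against the same background. Of 12 RANK pathway genes, 1 rose and none fell, with a median of 0.04: Id2, a helix-loop-helix regulator of alveolar growth, rose by 2.89 ± 0.19 (SE), while Tnfrsf11b, the decoy receptor for RANKL, was at -0.12 ± 0.57. Of 9 genes on the route from amphiregulin to its receptor, 1 fell, the protease inhibitor Timp3 (-2.03 ± 0.17), and the median was -0.25. Egfr was at -0.76 ± 0.11 and Erbb3 at 0.84 ± 0.15. Of 10 tested among 12 genes of the WNT4 response, 4 fell and none rose, with a median of 0.07. They included Axin2, a feedback target of WNT signaling (-3.14 ± 0.34), and the progenitor genes Procr (-2.45 ± 0.55) and Lgr5 (-2.01 ± 0.47). Of the 8 basal and myoepithelial markers, 5 also fell. The ratio of mean normalized counts in PyMT to those in FVB was 0.99 for Krt5, 1.26 for Krt14 and 0.92 for Trp63. The part of these markers in the differences was not tested. Lgr5 did not pass in the libraries without packets (-1.58, adjusted p = 0.0749 by edgeR).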

How the data were processed

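Total RNA of 24 mammary samples was depleted of ribosomal RNA and sequenced. The authors trimmed adapters, aligned reads to mm9 with GSNAP v2012-07-02 and deposited raw gene counts made with HTSeq v0.5.3p3, without normalization; the annotation release and the strand setting are not given in the sources used here. Groups were taken from genotype and week, and the 9 genes and all gene lists were chosen with earlier results of these data known. Each group held 3 mice. GENCODE M1 gave symbols, exon lengths and mm9 positions for 37205 of the 37991 genes.

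Counts were tested in R 4.3.3 with edgeR 4.0.16 (quasi-likelihood, TMM scaling, Benjamini-Hochberg adjustment), on genes that reached a CPM of 1 in 12 or more of the 24 samples. The standard error was the log2 fold change over the square root of its F statistic. Normalized counts used DESeq2 1.42.0 size factors, and log2 values had a pseudocount of 1. Weekly comparisons used the 6 samples of that week; the all-week and epithelial-scaled comparisons used genotype and week as factors; comparisons between weeks used all 24 samples in 8 groups. Total counts ran from 6969375 to 13516601 per library. The packet size of a library was the tallest peak in the smoothed number of genes by count (SD 1.5), sought from 5 counts upward. A peak had to stand above the counts just before it and was not compared with the number of genes at 1 count. Libraries without such a peak were taken as without packets. Both genotypes had such libraries only at weeks 8 and 12, so the genotype difference in the fit of these libraries rests on those weeks.

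The genes named were the 9 members, up to 3 called genes of largest fold from each pathway list, and the 3 genes most correlated with each tested member; other genes in the text were chosen after their values were seen. 1 gene that this rule names is not reported here. Alternatives were DESeq2's test, other scalings, other filters, a replicate block, counts divided by packet size, other epithelial markers, a fit of all 24 samples, and leaving out each sample; the fit of the 11 libraries without packets was chosen after seeing the data. Scripts were tested on simulated data. Replicates were checked for duplicate libraries, and none was found. The middle T transgene was not analysed here. Python 3.11.15, NumPy 2.4.6, SciPy 1.17.1, pandas 2.3.3 and matplotlib 3.10.9 were used.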

Additional observations from a re-analysis of the deposited data

Results flagged for a closer look

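Tnfrsf11a, the gene of RANK, moved in opposite directions with age in the genotypes. All 3 PyMT samples of week 12 lay below all 3 of week 6, and all 3 FVB samples of week 12 lay above all 3 of week 6. This pattern was itself the rule by which the gene was flagged, so it is not separate evidence. The share of all tested genes with such a pattern was not counted. All PyMT libraries of week 6 had packets. The change of the PyMT-FVB difference was -0.77 on the log2 scale, with an SE of 0.28, an edgeR p of 0.0108 and an adjusted p of 0.941, so it did not pass. It ran from -0.88 to -0.61 when single libraries were left out.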

How the results depend on the processing

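Of the 22 weekly calls of members, 17 were kept when each library was left out in turn, and 19 under every other alternative; all 7 calls of the epithelial-scaled comparison were kept in both. The count of members called at week 6, 3 as reported, was 6 with DESeq2, with no filter and with all 24 samples in 8 groups, and 7 with counts divided by packet size, and it ran from 3 to 5 with 1 library left out. At week 8, 6 as reported, it ran from 3 to 6 with 1 library left out. It was 8 with DESeq2, no filter, the weaker filter and counts divided by packet size, and 7 with all 24 samples in 8 groups. It was 5 with library size only and with the replicate block. The filters that count 8 also test Tnfsf11. With the weaker filter 8.08% of all genes were called at week 8. The shares under the other settings of this section are not given here.

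At week 8 Pgr was lost without PyMT replicate 1 (-5.07), PyMT replicate 3 (-4.94), FVB replicate 2 (-4.77) or FVB replicate 3 (-4.24), and Cited1 without the same libraries (-4.96, -4.33, -4.07 and -4.20). Prlr at week 8 was lost without PyMT replicate 1 (-1.12), 2 (-0.99) or 3 (-0.96) or FVB replicate 1 (-0.87) or 2 (-1.03), and with library size only (-0.77). At week 10 Pgr was lost without PyMT replicate 1 (-2.98), and Wnt4 without PyMT replicate 1 (-4.75), FVB replicate 1 (-4.44) or FVB replicate 2 (-4.55). Library size only also lost Prlr at week 10 (-0.98), and it lost Greb1 over all weeks (-2.04, adjusted p = 0.0511). Greb1 over all weeks was lost as well without FVB week 10 replicate 3 and PyMT week 8 replicate 2 together (-2.09, adjusted p = 0.0786). The adjusted p are from edgeR, and the cause was not tested. Calls gained without 1 library were Pgr and Wnt4 at week 6 without PyMT replicate 2 (-2.83 and -2.87), Greb1 and Cited1 at week 6 without PyMT replicate 3 (-9.57 and -5.59), Wnt4 at week 8 without PyMT replicate 2 (-3.07), Areg at week 10 without PyMT replicate 2 (-6.93) or FVB replicate 3 (-4.15), and Greb1 at week 12 without PyMT replicate 1 (-2.38).

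Greb1 at week 10, which was -0.42 as reported and not called, turned to 0.24 with library size only and to 1.98 with the replicate block, and ran from -2.92 to 3.42 with 1 library left out. For week 12 against week 6, none of the following passed under any setting, and with 1 library left out they crossed 0. In PyMT Esr1 ran from -0.45 to 0.079, Pgr from -1.05 to 1.03, Wnt4 from -0.79 to 0.95 and Cited1 from -2.35 to 0.57. In FVB Wnt4 ran from -0.99 to 0.0115 and Greb1 from -0.15 to 0.99. For the change of the PyMT-FVB difference, Pgr ran from -1.87 to 0.21, Wnt4 from -0.51 to 1.24 and Cited1 from -1.29 to 1.65, and Wnt4 was -0.37 with counts divided by packet size.

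The replicate numbers were not taken as pairing the samples: the correlations of the 12 same-numbered pairs ran from -0.03 to 0.18, 4 were over 0.1, and 6, among them the 3 pairs of week 10, were best with their own number. With the replicate block, 3, 5, 6 and 7 members were called at weeks 6, 8, 10 and 12 and 8 over all weeks; Cited1 at week 8 did not pass (-4.63, adjusted p = 0.0652 by edgeR). Library size only moved the median of all genes by 0.24 to 0.32 at the single weeks.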
